A study of Homo sapiens with 6 samples.

Results

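The genes of PD-L1 (CD274) and of the other immune checkpoint ligands were read from RNA-seq libraries of U2OS, a cell line from a human osteosarcoma. They comprised 9 genes of the 15585 in the count table, namely CD274, PDCD1LG2, CD276, CD47, PVR, NECTIN2 (older symbol PVRL2), LGALS9, CMTM6 and ICOSLG. They were picked by name, and CD274 was also picked because its reads rose from few to more in these same libraries. The values of CD274 between the groups are therefore a description and carry no test. The 6 libraries fell into 2 groups, with 3 libraries transfected with control siRNA (siCTR) and 3 with siRNA against LSD1 (siLSD1), each for 48 h. Both groups were cells of 1 line that had gone through a transfection, and untransfected cells were not analysed here. Which LSD1 siRNA was used for the libraries, and whether the replicates were separate cultures, is not given in the sources used here, so p-values measure the spread between these samples, which may be technical. The series was made to examine the transcriptome after LSD1 knockdown, and the comparison below asks which checkpoint ligand genes differed between siLSD1 and siCTR.

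Checkpoint ligands are proteins on tumor and antigen-presenting cells that bind receptors on T cells, natural killer cells or macrophages and turn their response down or up. PD-L1 binds PD-1 on T cells and dampens them, and its gene is a classic target of interferon gamma through JAK-STAT signalling and IRF1. LSD1, encoded by KDM1A, removes methyl groups from histone H3 in complexes such as CoREST and is known mostly as a repressor of transcription.

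Between 12513511 and 13561344 reads were counted per library. The siCTR replicate 2 library stood apart from the other 5, as its counts differed from theirs by a chi-square of 22.7 to 39.3 per degree of freedom, against 6.45 to 24.3 between the others. KDM1A had 6140, 6493 and 6573 reads in siCTR against 1110, 1198 and 1246 in siLSD1, and its level in siLSD1 was 18.5% of that in siCTR. PTPRC, which marks all leukocytes, had 1 read in siCTR replicate 2 and 0 in the other libraries. Of 12 immune cell markers, 8 were in the table and 2 had enough reads for a test in edgeR. Of these 2, 0 passed, against 1.44% of all genes tested with adjustment and 14% without, so the count says little. The summed level of the 8 was 8.40 to 11.5 CPM (counts per 1000000 reads) in siCTR and 9.04 to 13.4 in siLSD1. Among the markers of the mesenchymal and osteoblast lineage, VIM, ALPL and COL1A1 were expressed, whereas RUNX2 had 1, 0 and 3 reads in siCTR against 2, 3 and 4 in siLSD1, and SPARC had 1, 1 and 0 in siCTR against 3, 1 and 0 in siLSD1. The summed level of that list was 1098 to 1214 CPM in siCTR and 1154 to 1194 in siLSD1. RUNX2 and SPARC were thus near 0 in both groups of this osteosarcoma line. ALPL of the same list had means of 339 CPM in siCTR and 365 in siLSD1, COL1A1 10.9 and 12.3, and VIM 801 and 791.

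CD274, the gene of PD-L1 and the member picked for its rise, was read first. Its reads numbered 4, 7 and 8 in siCTR against 30, 19 and 27 in siLSD1. Every siLSD1 library was above every siCTR library, and even the highest values were those of a gene with few reads. The gene passed the filter on low counts (0.760 CPM in at least 3 libraries) through the siLSD1 libraries alone, since 0 siCTR libraries reached it. In CPM, scaled to the effective library size, this was 0.483 ± 0.153 in siCTR and 1.92 ± 0.362 in siLSD1 (mean ± SD, n = 3). The log2 fold change was 1.97 (SE 0.39) with a 95% interval of 1.12 to 2.82, which is 3.92-fold with limits of 2.18 and 7.07. Summed over its libraries, the gene had 19 reads in siCTR and 76 in siLSD1, or 0.483 and 1.93 CPM before scaling. Exact 95% binomial (Clopper-Pearson) intervals, which cover counting error only, ran from 0.291 to 0.754 in siCTR and from 1.52 to 2.42 in siLSD1. In bulk libraries a rise in every cell and a rise in a small part of the cells cannot be told apart. Without siCTR replicate 2 the log2 fold change was 2.07, and without any 1 of the libraries in turn it was between 1.74 and 2.15.

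**Figure D1:**
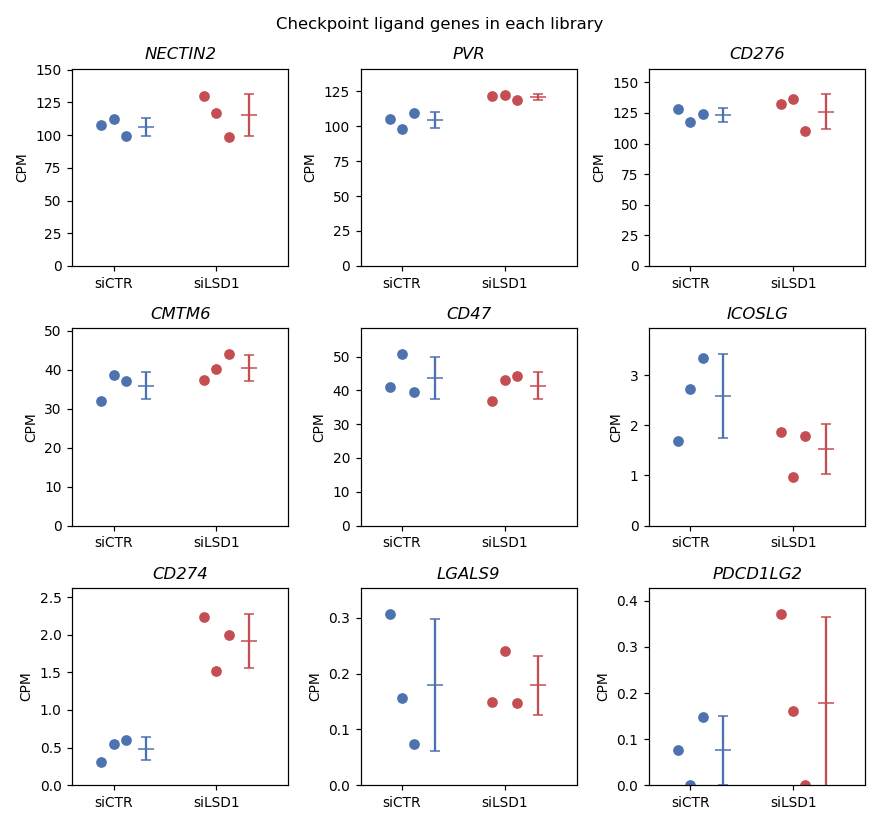
Level (CPM, vertical axes) of the 9 checkpoint ligand genes in each of the 3 siCTR (blue) and 3 siLSD1 (red) libraries, with the group mean and SD as bars beside the points and a separate linear axis from 0 for each gene (a lower SD limit under 0 is not drawn). The points of CD274 and PVR do not overlap between the groups, and those of the other 7 genes do.

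CD274 lies on chromosome 9, at 5450503 to 5470566 on the plus strand of GRCh38 (GENCODE annotation). The stretch just upstream of its annotated start is shown because it is where interferon-responsive motifs would be read for this gene, and the one of CMTM6, whose protein keeps PD-L1 at the cell surface, is shown as a member with other motifs. The 250 bases before the RefSeq start (GRCh38.p14) were searched on both strands for an ISRE core (TTTC, any 2 bases and TTTC again), a GAS site (TTCNNNGAA), an AP-1 site (TGANTCA), a GC box (GGGCGG) and an E-box (CACGTG). Bases inside the annotated gene were left out of the printed sequence. Capitals mark the ISRE core matches in CD274 (chr9:5450292-5450502, plus strand) and the GC boxes in CMTM6 (chr3:32502853-32503102, minus strand).
CD274: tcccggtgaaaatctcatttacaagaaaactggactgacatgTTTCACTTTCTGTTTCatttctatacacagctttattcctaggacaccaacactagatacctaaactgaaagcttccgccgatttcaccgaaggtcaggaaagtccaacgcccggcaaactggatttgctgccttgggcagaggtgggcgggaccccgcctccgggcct
CMTM6: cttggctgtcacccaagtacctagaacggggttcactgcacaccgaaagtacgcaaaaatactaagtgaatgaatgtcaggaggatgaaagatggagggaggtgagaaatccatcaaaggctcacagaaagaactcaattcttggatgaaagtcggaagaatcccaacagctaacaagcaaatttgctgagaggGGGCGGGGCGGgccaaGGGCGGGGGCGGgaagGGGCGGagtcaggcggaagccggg

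In CD274 there were 2 ISRE core matches that overlap each other, at 208 to 199 and 202 to 193 bases before the RefSeq start, together with 1 GAS match at 125 to 117 and 1 GC box at 63 to 58. An ISRE core was found in 3.02% and a GAS site in 6.57% of the 35116 promoters of the same length. GC boxes were found in 42.6% of them, AP-1 sites in 6.57% and E-boxes in 6.34%. Of the 9 members, 8 had a promoter entry, and CD274 was the 1 member with an ISRE core or a GAS match in its window. The GC box count was 5 in CMTM6, 6 in CD47, 3 in NECTIN2, 4 in ICOSLG and 7 and 2 in the 2 windows of CD276, whereas PVR and LGALS9 had a match to none of the 5 motifs. The GC content of the window was 54.8% in CD274 and 53.6% in CMTM6, against a median of 58% over all promoters. A match describes the letters of the window and is not evidence of binding, and the letters are the same in both groups.

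The other ligand of PD-1, PD-L2, is encoded by PDCD1LG2 on chromosome 9 at 5510531 to 5571282, with its start 60.0 kb beyond that of CD274. It had 1, 0 and 2 reads in siCTR against 5, 2 and 0 in siLSD1. These overlap and lie near the limit of detection, at which 3 reads are 0.222 to 0.241 CPM, and the gene did not pass the filter on low counts. LGALS9 (chromosome 17, 27629798 to 27649560), which encodes galectin-9, a ligand of TIM-3, had 4, 2 and 1 reads in siCTR against 2, 3 and 2 in siLSD1. It did not pass the filter either. In the edgeR fit without a filter, the log2 fold change was 1.12 for PDCD1LG2, with a 95% interval of -1.40 to 3.65, and -0.01 for LGALS9, with an interval of -1.97 to 1.96. At this depth the intervals leave room for changes of either sign in both genes.

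PVR and NECTIN2 encode nectin-like and nectin proteins that bind TIGIT, and in NECTIN2's case PVRIG, on T and natural killer cells, and they also bind the activating receptor CD226. PVR (chromosome 19, 44643798 to 44666162) had 1365, 1259 and 1468 reads in siCTR against 1633, 1522 and 1601 in siLSD1. NECTIN2 (chromosome 19, 44846175 to 44889223) had 1398, 1443 and 1332 reads in siCTR against 1748, 1458 and 1325 in siLSD1. All siLSD1 libraries were above all siCTR libraries in CPM for PVR, with 104 ± 5.64 CPM in siCTR and 121 ± 1.87 in siLSD1 (SD, n = 3). For NECTIN2 they overlapped, with 106 ± 6.75 and 115 ± 16.1 CPM, and the spread in siLSD1 came from a high value in replicate 1 and a low one in replicate 3. The log2 fold change was 0.21 (SE 0.10, 95% interval -0.01 to 0.44) for PVR and 0.11 (SE 0.12, -0.15 to 0.38) for NECTIN2. Neither passed edgeR's quasi-likelihood fit after Benjamini-Hochberg correction over all 11844 genes tested, in which the adjusted p was 0.381 for PVR and 0.716 for NECTIN2. Groups that do not overlap in CPM were found for 21.4% of all tested genes, and for 2 of the 7 tested members, CD274 and PVR.

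CD276 and CD47 were abundant and their intervals lay around 0. CD276 (chromosome 15, 73683966 to 73714514) encodes B7-H3, a B7 family protein that is high on many solid tumors. It had 1669, 1512 and 1668 reads in siCTR against 1773, 1699 and 1485 in siLSD1. CD47 (chromosome 3, 108043091 to 108091862), whose protein binds SIRPA on macrophages and inhibits phagocytosis, had 531, 652 and 531 reads in siCTR against 493, 538 and 597 in siLSD1. Both genes overlapped between the groups. The log2 fold change of CD276 was 0.03 (SE 0.12), with a 95% interval of -0.22 to 0.28. That of CD47 was -0.08 (SE 0.14), with an interval of -0.37 to 0.22. The adjusted p from edgeR's quasi-likelihood fit after Benjamini-Hochberg correction was 0.924 for CD276 and 0.830 for CD47. The sign of both depended on single libraries, since that of CD276 turned without siLSD1 replicate 1 or 2 (range over the fits without 1 library -0.02 to 0.12) and that of CD47 without siCTR replicate 2 or siLSD1 replicate 1 (range -0.15 to 0.04).

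CMTM6 is not a ligand but a membrane protein that protects PD-L1 from lysosomal degradation. Its gene (chromosome 3, 32481312 to 32502852) had 414, 496 and 500 reads in siCTR against 502, 499 and 594 in siLSD1, or 35.9 ± 3.55 and 40.5 ± 3.34 CPM (SD, n = 3). The groups overlapped, and the log2 fold change was 0.17 (SE 0.13, 95% interval -0.10 to 0.45). ICOSLG, the ligand of the costimulatory receptor ICOS, stimulates rather than inhibits T cells. It (chromosome 21, 44215382 to 44241446) had 22, 35 and 45 reads in siCTR against 25, 12 and 24 in siLSD1, or 2.59 ± 0.834 and 1.54 ± 0.497 CPM. Its mean in siLSD1 was 59.3% of that in siCTR, but the groups overlapped, with siCTR replicate 1 inside the range of siLSD1. The log2 fold change was -0.74 (SE 0.35), with a 95% interval of -1.50 to 0.01. The adjusted p from edgeR's quasi-likelihood fit after Benjamini-Hochberg correction was 0.566 for CMTM6 and 0.363 for ICOSLG.

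Counted over the members, 1 of the 7 tested genes passed an adjusted p of 0.05 in edgeR, and 0 passed it as lower in siLSD1, with or without adjustment. That gene was CD274, which was chosen for its rise, and nothing is read from the count. Over all genes tested, 1.44% passed in either direction and 1.07% as higher in siLSD1, and among the 801 genes with a mean of 10 to 25 reads, the range of CD274, 1.62% passed as higher. Without any 1 of the 6 libraries, 0 members passed. The median log2 fold change of the 7 was 0.11, with 5 positive and 2 negative values, beside a median of -0.01 over all genes tested.

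**Figure D2:**
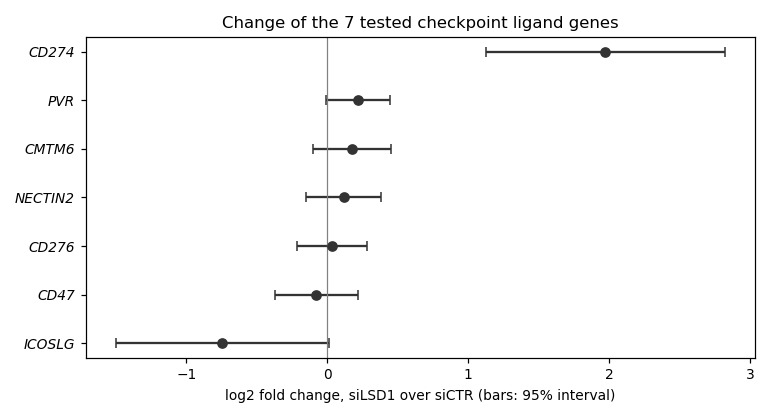
Log2 fold change (siLSD1 over siCTR, horizontal axis) of the 7 tested checkpoint ligand genes (rows), with 95% intervals from the edgeR fit as bars. The interval of CD274, a gene chosen for its rise, runs from 1.12 to 2.82, and those of the other 6 genes include 0.

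Levels of different genes were compared per kilobase, as the deposited FPKM (reads in CPM divided by the gene length in kilobases). In siCTR, NECTIN2, PVR and CD276 were at the top, with means of 30.0 ± 1.77, 29.6 ± 1.86 and 27.7 ± 1.55 FPKM (SD, n = 3). CMTM6 with 9.27 ± 0.819 and CD47 with 8.26 ± 1.07 FPKM followed. ICOSLG had 0.318 ± 0.101 FPKM and CD274 had 0.131 ± 0.0407. LGALS9 and PDCD1LG2 came last with 0.0577 and 0.0319 FPKM. Neighbours in this order whose libraries overlapped were NECTIN2 and PVR, PVR and CD276, CMTM6 and CD47, CD274 and LGALS9, and LGALS9 and PDCD1LG2. The mean of CD276 was 212 times that of CD274.

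In siLSD1, PVR with 34.3 ± 0.708, NECTIN2 with 32.6 ± 4.79 and CD276 with 28.3 ± 3.26 FPKM were again the highest and overlapped as neighbours. CMTM6 with 10.5 ± 0.793 and CD47 with 7.83 ± 0.708 FPKM did not overlap. CD274 stood next, with 0.522 ± 0.102 FPKM, followed by ICOSLG with 0.189 ± 0.0620. CD274 and ICOSLG thus exchanged places, and in each group their libraries did not overlap. As CD274 was chosen for its rise and the change of ICOSLG did not pass the test, this exchange is a description only. PDCD1LG2 with 0.0755 and LGALS9 with 0.0576 FPKM remained last, and PDCD1LG2 overlapped with ICOSLG and with LGALS9. Even in siLSD1, the mean of CD276 was 54.3 times that of CD274.

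**Figure D3:**
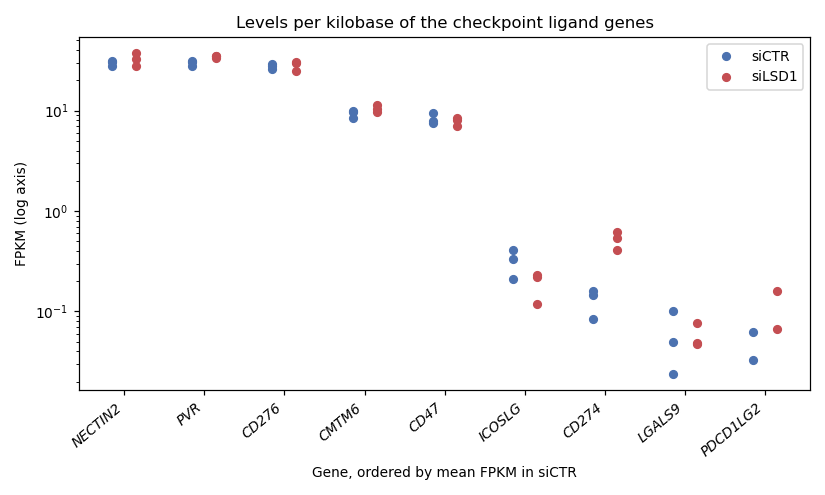
Level per kilobase (FPKM, logarithmic axis) of the 9 genes in each of the 3 siCTR (blue) and 3 siLSD1 (red) libraries, ordered by the mean in siCTR. The points of NECTIN2, PVR, CD276, CMTM6 and CD47 lie far above those of the other 4 genes. CD274, a gene chosen for its rise, is above ICOSLG in siLSD1 and under it in siCTR. The 1 library of each group in which PDCD1LG2 had 0 reads cannot be drawn on this axis.

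Next, other immune ligands and surface molecules were examined as a list of 31 symbols, which also holds the enzymes IDO1, NT5E and ENTPD1 and the receptor CD40. In the table were 23 of them, and 16 were tested. In edgeR, VTCN1 rose, 0 genes fell (1, CD24, at an unadjusted p under 0.05) and 15 did not pass the test. Over all genes tested, 1.07% passed as higher, 1.44% in either direction and 14% at an unadjusted p. The median log2 fold change of the list was -0.08, with 5 positive and 11 negative values. VTCN1 encodes B7-H4, a B7 family protein that inhibits T cells. It had 10, 12 and 9 reads in siCTR against 35, 26 and 28 in siLSD1, so that the groups did not overlap and the counts were few in both, as for CD274. Its level was 0.791 ± 0.134 CPM in siCTR and 2.26 ± 0.304 in siLSD1, a log2 fold change of 1.50 (SE 0.33), with an adjusted p of 0.0414 from edgeR's quasi-likelihood fit after Benjamini-Hochberg correction. Only 2 siCTR libraries reached the filter on low counts, so the gene was tested through the siLSD1 libraries, in which it is high. In the edgeR fit without a filter the adjusted p was 0.0322 after Benjamini-Hochberg correction. The call did not hold when any 1 of the 6 libraries was left out, with an adjusted p of 0.0715 to 0.163 in those edgeR fits after Benjamini-Hochberg correction. The promoter window of VTCN1 had a match to none of the 5 motifs searched.

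CD24, a surface protein that inhibits phagocytosis by macrophages, had 588, 747 and 655 reads in siCTR against 440, 452 and 559 in siLSD1. The groups did not overlap, with a log2 fold change of -0.46 (SE 0.14). NECTIN1 had 205, 176 and 212 reads in siCTR against 198, 150 and 168 in siLSD1, and NECTIN3, a binding partner of NECTIN2 and PVR, had 204, 219 and 234 in siCTR against 183, 202 and 241 in siLSD1. Both nectins overlapped between the groups, with log2 fold changes of -0.21 and -0.07. The adjusted p from edgeR's quasi-likelihood fit after Benjamini-Hochberg correction was 0.141 for CD24, 0.566 for NECTIN1 and 0.863 for NECTIN3. CD24 passed as lower in 2 other edgeR fits. These were the one with the replicate number as a block (897 of 11844 genes called) and the one corrected for GC content and length (873 of 11759).

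Proteins that act on PD-L1 or CD47 after translation were covered by a list of 14 genes, 13 of which were tested. In edgeR, B3GNT3 rose, 0 genes fell and 12 did not pass the test. At an unadjusted p under 0.05, 2 were higher (B3GNT3 and GSK3B) and 1 was lower (STUB1). Over all genes tested, 1.07% passed as higher, 1.44% in either direction and 14% at an unadjusted p. B3GNT3 encodes a glycosyltransferase that adds sugars to PD-L1, which its binding to PD-1 depends on. It had 182, 156 and 181 reads in siCTR against 348, 282 and 278 in siLSD1, or 13.2 ± 0.960 and 23.1 ± 2.69 CPM (SD, n = 3). The groups stood well apart, and the log2 fold change was 0.80 (SE 0.14), with an adjusted p of 0.0162 from edgeR's quasi-likelihood fit after Benjamini-Hochberg correction. The call held without siCTR replicate 1 or siLSD1 replicate 3. It did not hold without siCTR replicate 2, siCTR replicate 3, siLSD1 replicate 1 or siLSD1 replicate 2, for which edgeR after Benjamini-Hochberg correction gave an adjusted p of 0.0596, 0.0618, 0.0739 and 0.0663.

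GSK3B, a kinase that marks PD-L1 for degradation, had a log2 fold change of 0.32 (SE 0.11). STUB1, a ubiquitin ligase for PD-L1, had one of -0.35 (SE 0.12). CMTM4, the relative of CMTM6 with a like role, had 364, 377 and 419 reads in siCTR against 342, 348 and 336 in siLSD1. QPCTL, the enzyme that modifies CD47 for binding to SIRPA, had 473, 598 and 565 in siCTR against 626, 489 and 408 in siLSD1. The CMTM4 levels in CPM did not overlap between the groups and those of QPCTL did, with log2 fold changes of -0.18 (SE 0.12) and -0.11 (SE 0.16). By edgeR's quasi-likelihood fit after Benjamini-Hochberg correction, the adjusted p was 0.186 for GSK3B and for STUB1, 0.542 for CMTM4 and 0.805 for QPCTL. The median of the list was 0.01.

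The known transcriptional inputs of CD274 were a list of 26 genes of interferon, JAK-STAT, IRF, NF-kB and related signalling, 24 of which were tested. Of the 24, 6 were higher and 5 were lower in every siLSD1 library than in every siCTR library, against 21.4% of all genes in either direction. By edgeR, 0 of the 24 passed an adjusted p of 0.05, as by DESeq2 and limma-voom, against 1.44% of all genes. The edgeR fit with a correction for GC content and length called 2 of them (JUN and NFKB1), beside 873 of all 11759 genes in that fit. With the replicate number as a block, edgeR called 1 of them (NFKB1), beside 897 of all 11844 genes. The median log2 fold change was -0.00 on the log2 scale, with 12 positive and 12 negative values. At an unadjusted p under 0.05, 4 genes were higher and 1 was lower in siLSD1, against 14% of all genes in either direction. JAK2, the kinase of the interferon gamma receptor, had 630, 587 and 662 reads in siCTR against 567, 636 and 712 in siLSD1. IRF1, the factor that binds the CD274 promoter upon interferon gamma, had 144, 151 and 136 in siCTR against 131, 126 and 122 in siLSD1. The IRF1 counts were lower in every siLSD1 library, and those of JAK2 overlapped. SOCS1, an inhibitor of JAK-STAT signalling that did not pass the filter on low counts, had 18, 6 and 17 reads in siCTR against 5, 3 and 2 in siLSD1. Its level was lower in every siLSD1 library, and in the edgeR fit without a filter its log2 fold change had a 95% interval of -3.29 to -0.71, with an adjusted p of 0.113 after Benjamini-Hochberg correction.

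The log2 fold changes were 0.03 for JAK2, -0.19 for IRF1 and -0.08 for MYC, a transcription factor that is also known to act on CD274. The adjusted p-values of these 3 genes in edgeR's quasi-likelihood fit after Benjamini-Hochberg correction were 0.946, 0.612 and 0.768. STAT3 (0.30), NFKB1 (0.35), JUN (0.30) and FOS (0.41) had positive log2 fold changes with an unadjusted p under 0.05, and IFNAR2 had a negative one (-0.39). In the same order, edgeR's quasi-likelihood fit after Benjamini-Hochberg correction gave them adjusted p-values of 0.259, 0.185, 0.272, 0.347 and 0.248.

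**Figure D4:**
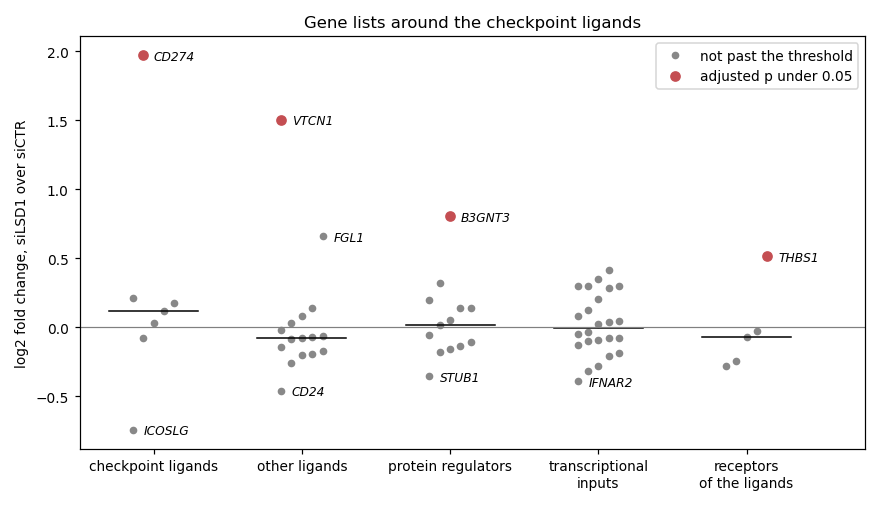
Log2 fold change (siLSD1 over siCTR, vertical axis) of each tested gene of the checkpoint ligands and of the 4 lists around them (the list marked other ligands also holds some enzymes and a receptor), with the median of each list as a black line and genes past an adjusted p of 0.05 in red. The medians lie between -0.08 and 0.11, and 1 gene is past the threshold in each of 4 lists (CD274, VTCN1, B3GNT3 and THBS1) and 0 among the transcriptional inputs, against 1.44% of all genes tested, and CD274 was chosen for its rise.

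Receptors and other binding partners of the members were a list of 15 symbols, 11 of which were in the table and 5 of which were tested. PDCD1, TIGIT, CTLA4 and CD28 were not analysed here. ICOS and CD96, which are lymphocyte genes, had 1 and 2 reads over all 6 libraries. THBS1, which encodes thrombospondin-1, a secreted protein that binds CD47, rose, and the other 4 tested genes did not pass, against 1.07% of all genes passing as higher and 1.44% in either direction. It had 1770, 1579 and 1914 reads in siCTR against 2540, 2494 and 2486 in siLSD1, or 134 ± 9.92 and 191 ± 8.09 CPM (SD, n = 3), without overlap. Its log2 fold change was 0.51 (SE 0.11), with an adjusted p of 0.0341 from edgeR's quasi-likelihood fit after Benjamini-Hochberg correction. The call did not hold when any 1 of the 6 libraries was left out, with an adjusted p of 0.0552 to 0.239 from edgeR after Benjamini-Hochberg correction.

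RGMB, which binds PD-L2, had 367, 383 and 381 reads in siCTR against 310, 296 and 351 in siLSD1. SIRPA, the receptor of CD47, had 91, 53 and 58 in siCTR against 54, 48 and 65 in siLSD1. The RGMB values were lower in every siLSD1 library and those of SIRPA overlapped, with log2 fold changes of -0.25 (SE 0.12) and -0.28 (SE 0.25). By edgeR's quasi-likelihood fit after Benjamini-Hochberg correction, the adjusted p was 0.399 for RGMB and 0.641 for SIRPA.

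CD274, which was chosen for its rise, was then set beside the 18 genes of the table that start within 1 Mb of its start. Of these, 14 were tested. Their log2 fold changes ranged from -0.39 to 0.33, with a median of 0.01. By edgeR, 0 of the 14 passed an adjusted p of 0.05, as by DESeq2 and limma-voom, and 1 had an unadjusted p under 0.05. Over all genes tested, these shares were 1.44% and 14%, so the counts say nothing particular about the locus. The 1 gene was SLC1A1, a glutamate transporter whose start is the farthest upstream, with a log2 fold change of -0.39 (SE 0.13) and an adjusted p of 0.201 from edgeR's quasi-likelihood fit after Benjamini-Hochberg correction. The nearest tested gene upstream, PLGRKT (-12.6 kb, on the minus strand), had a log2 fold change of 0.06, and the nearest tested gene downstream, RIC1 (179 kb), had 0.14. JAK2 is itself a neighbour, at -466 kb.

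**Figure D5:**
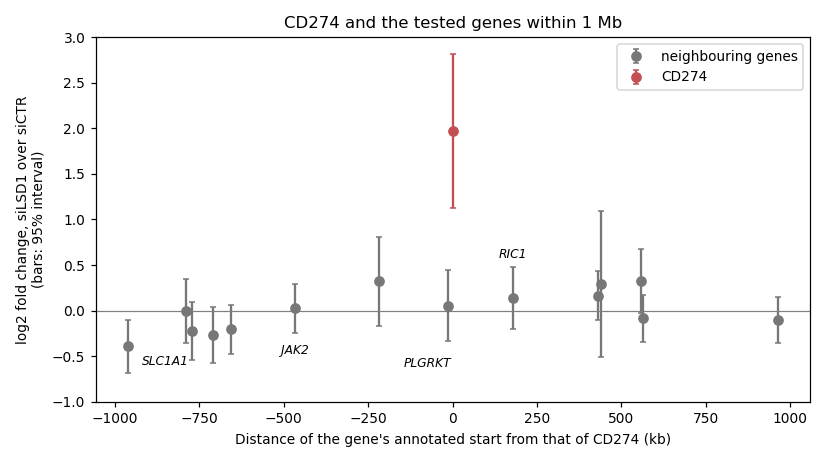
Log2 fold change (siLSD1 over siCTR, vertical axis) of CD274 (red) and of the 14 tested genes within 1 Mb (grey), by the distance of their annotated starts from that of CD274 in kb, with 95% intervals from the edgeR fit as bars. The neighbours lie between -0.39 and 0.33 and CD274, a gene chosen for its rise, at 1.97.

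Genes whose log2 CPM followed that of CD274 closely over the 6 libraries, among the 11565 genes that averaged 1 CPM or more, were RAB36 (Pearson r = 0.992), ZNF587B (0.985), TTC12 (0.984) and CCDC113 (0.983). In all, 242 genes had an r of at least 0.9, and VTCN1 had 0.948. This is a description of 6 points in 2 groups, which share the group difference itself, and it says nothing of common control. RAB36, a small GTPase gene, had 80, 99 and 105 reads in siCTR against 151, 129 and 147 in siLSD1. CCDC113 had 78, 80 and 93 in siCTR against 171, 145 and 168 in siLSD1. In both, siCTR replicate 1 was the lowest library and siLSD1 replicate 2 the lowest of its group, as for CD274.

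Markers of other cell types were read beside the rise of CD274. The summed level of the 3 endothelial markers was 5.22 to 8.63 CPM in siCTR and 13.5 to 14.2 in siLSD1. VWF, which encodes von Willebrand factor, rose from 103, 63 and 89 reads to 152, 161 and 155, with a log2 fold change of 0.87 (SE 0.19) and an adjusted p of 0.0418 from edgeR's quasi-likelihood fit after Benjamini-Hochberg correction. The VWF call held without siCTR replicate 1 and did not hold without any 1 of the other 5 libraries, with an adjusted p of 0.0728 to 0.181 in edgeR after Benjamini-Hochberg correction. With scaling by library size it was 0.0538 in edgeR after the same correction. CDH5, which encodes VE-cadherin, had 8, 4 and 11 reads in siCTR against 28, 16 and 27 in siLSD1, without overlap. Its log2 fold change was 1.60 (SE 0.41), with an adjusted p of 0.0830 in edgeR after Benjamini-Hochberg correction. CDH5 also entered the test through the siLSD1 libraries, as 1 siCTR library reached the filter. PECAM1, a defining endothelial marker, had 1, 0 and 3 reads in both groups. The summed level of the 4 epithelial markers was 2958 to 3581 CPM in siCTR and 2436 to 3035 in siLSD1. In edgeR 0 of them passed the adjusted threshold, against 1.44% of all genes tested. CDH1 and KRT18 had an unadjusted p under 0.05, in opposite directions, as had 14% of all genes in either direction. Of the immune markers, NCAM1 had 1, 2 and 0 reads in siCTR against 12, 8 and 10 in siLSD1 and did not pass the filter. Without a filter, edgeR gave NCAM1 a log2 fold change of 3.16 and an adjusted p of 0.0415 after Benjamini-Hochberg correction. The part of these marker genes in the rise of CD274 was not tested.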

How the data were processed

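RNA-seq libraries of U2OS cells, 3 siCTR and 3 siLSD1, were grouped by their labels. The authors aligned reads with STAR and deposited whole, unnormalized read counts per gene. Genome build, annotation and counter are not given in the sources used here. The authors also deposited a normalized signal (counts divided by a size factor per library), which was not used for results, and FPKM, which was used for levels between genes. The deposited columns of log2 fold changes and p-values hold the authors' own comparisons and were not used. The authors' deposited tables for pairs of libraries hold a second set of counts, with a median ratio of 1.11 to the first for genes with a mean of at least 50 reads, and served as an alternative.

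For counts, edgeR 4.0.16 was run under R 4.3.3. Libraries were scaled by TMM, genes were kept by filterByExpr (10 reads as minimum count) and a two-sided quasi-likelihood test without covariates was used, and p-values were adjusted with the Benjamini-Hochberg method over the 11844 of 15585 genes that passed the filter. A call is an adjusted p under 0.05. The coefficient of biological variation was 12.6%. The chi-square per degree of freedom between any 2 libraries was 6.45 to 39.3, above sampling noise, so no 2 libraries were taken as 1 library deposited again. This does not show that they came from separate cultures. The steps were tested on simulated counts. Tables and figures were made with Python 3.11.15, numpy 2.4.6, pandas 2.3.3, scipy 1.17.1 and matplotlib 3.10.9.

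The alternatives were DESeq2 1.42.0, limma-voom (limma 3.58.1), scaling by library size, DESeq2 size factors in edgeR, no filter, a filter of 1 CPM in 3 libraries, a replicate block, a correction for GC content and length (lowess span 0.3), the second counting, and leaving out each library. The members, the lists and the tests were chosen with earlier results of these data known. Named genes are the 9 members, KDM1A, the genes of each list past the adjusted threshold or else at most the 4 with the lowest unadjusted p under 0.05, further genes with a role tied to a member, and the genes most correlated with CD274. Some results under this rule are not reported here. The cell type markers, SIRPA, ICOS, CD96, SOCS1, GSK3B, STUB1, CD24, PLGRKT and RIC1 were named beside them after their values were seen. Of 15585 symbols, 15349 were matched to GENCODE 44 (GRCh38), 386 of them through an older symbol or a synonym. Gene coordinates are from that annotation. Promoter sequences and their coordinates are from RefSeq.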

Additional observations from a re-analysis of the deposited data

How the results depend on the processing

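The direction of the log2 fold change of VTCN1, B3GNT3 and THBS1 was the same in all 15 alternatives, and these calls held in the 9 that used all libraries. Without 1 library, the checkpoint ligands called numbered 0 to 0 against 1, the other ligands 0 to 0 against 1, the receptors 0 to 0 against 1, and the protein regulators 0 to 1 against 1. The cause was not tested, but these fits rest on 5 libraries, and the number of calls over all genes fell from 171 to between 58 and 136. DESeq2 called 323 genes and edgeR without a filter called 290. The correction for GC content and length called 873 of 11759 genes. In that fit 2 other ligands (CD24, lower, and VTCN1) and 2 protein regulators (B3GNT3 and GSK3B) passed. So did 2 transcriptional inputs (JUN and NFKB1, against 0) and 1 gene near CD274 (SLC1A1, against 0), and the members called numbered 1. The direction of CD274 follows from the choice of the gene.

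Replicate numbers are shared between the groups, and a fit with a replicate block called 897 of 11844 genes. Among them were 2 other ligands (CD24, lower, and VTCN1) and 1 transcriptional input (NFKB1). The correlation of deviations from the group means was 0.328, 0.0744 and 0.310 for libraries with the same number. Every library correlated best with its own number. The authors' own comparisons of single libraries also matched siCTR and siLSD1 by number. No source used here states that equal numbers are pairs, so the main fit has no block. The number of calls depends on this choice. Depth limits PDCD1LG2 and LGALS9, for which 3 reads or fewer in a library are at the floor.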
